A study of Mus musculus with 4 samples.

Results

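The genes described here are 37 genes that mark or are used by the endothelial cells of liver sinusoids and vessels, chosen by symbol among the 27027 entries of a mouse liver expression table. All 37 were found, and 35 of them had at least 20 reads over the 4 libraries, the minimum for being called, as did 14133 of all entries. The table comes from male C57BL/6J mice (C57BL/6 in the labels), 9 to 12 weeks old by the study's methods, that were fasted overnight and injected i.p. with 0.9% NaCl (control) or with 300 mg/kg acetaminophen (APAP). APAP is an analgesic that causes hepatocyte necrosis in overdose. Liver RNA was pooled within each group, from 6 controls at each of 24 h and 48 h and from 7 APAP recipients at each of the same times, and each pool gave 1 library of 3′ mRNA sequencing by MACE, which reads the tail end of each mRNA. The mice carried no transgene or deletion by the labels, and no cell type was isolated.

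Sinusoidal endothelial cells line the capillaries between the hepatocyte plates. They have fenestrae and no continuous basement membrane, take up waste from blood through scavenger receptors such as the stabilins, and release angiocrine signals that act on hepatocytes: Wnt ligands and R-spondin 3 keep the genes of the pericentral hepatocytes on, and BMP ligands set hepcidin. Endothelial cells of larger vessels share VEGF receptors, angiopoietin receptors and junction proteins with them, and inflamed endothelium displays selectins and immunoglobulin-type adhesion molecules to which leukocytes bind. The comparison asked whether genes of sinusoidal identity, angiocrine genes and adhesion genes differed from control in the same way at 24 h and 48 h after APAP.

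A fold is the count in an APAP pool over the count in the control pool of the same time, each divided by its size factor. The range after it is the 95% exact interval from the reads of both libraries, which covers counting error only. A gene was called at a fold of at least 2 in either direction with an interval that leaves out 1. Pairs of values are given in the order 24 h and 48 h. Each group was 1 pool without a replicate, so differences among mice are hidden and no p-value is given. The libraries held 4859661 to 5698778 reads on genes, and size factors ran from 0.880 to 1.17. Of the hepatocyte markers, 1 of 8 was called at 24 h and 1 of 8 at 48 h, and they had 395064 to 438157 normalized reads in each pool. All the endothelial genes summed to 3813 and 3932 normalized reads in controls and to 3535 and 4019 in the APAP pools.

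Most endothelial genes lay within 2-fold of control. At 24 h, 1 of 35 was called higher (Lyve1) and 2 of 35 were called lower (Ushbp1 and Wnt2), where 5.31% of all tested genes were called higher and 4.88% lower. At 48 h, 1 of 35 was called higher (again Lyve1) and 0 lower, where 5.18% of all tested genes were called higher and 4.82% lower. These shares are also the background for the counts of each further list. The median log2 fold of the endothelial genes was -0.06 at 24 h and 0.07 at 48 h, beside 0.01 and 0.00 over all tested genes. Their groups had different medians: adhesion genes had medians of 0.95 and 0.74, receptors and junctions 0.28 and 0.36, vessel type genes 0.12 and 0.14, sinusoidal identity genes -0.14 and -0.03, and angiocrine genes -0.71 and -0.14. These medians rest on 3 to 12 genes each and were not tested. That of the adhesion genes was 0.67 and 0.76 without Selp, which had few reads, and 0.40 at 24 h with a floor of 10 reads.

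**Figure D1:**
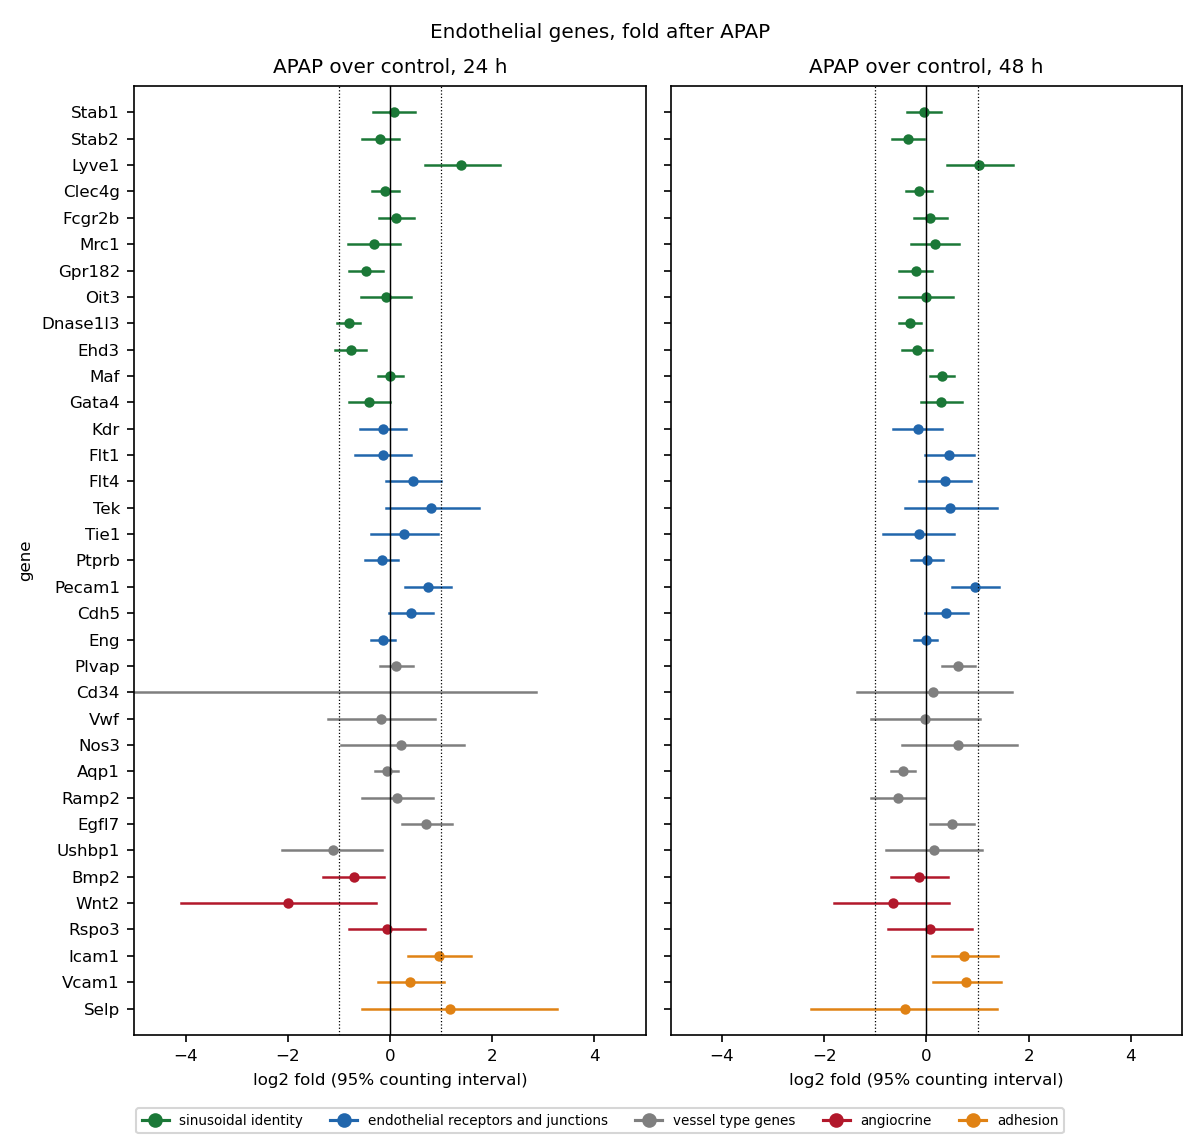
Log2 fold of APAP over control at 24 h (left) and 48 h (right) for the 35 tested endothelial genes, coloured by group, with lines for the 95% counting interval and dotted lines at a 2-fold difference. Lyve1 lies above the upper dotted line in both panels, Wnt2 and Ushbp1 lie under the lower one at 24 h, Selp at 24 h lies above 2-fold with an interval across 0, and Cd34, with 2 and 1 reads at 24 h, has an interval that runs off the left edge and no point.

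The direction of the smaller differences depended on the scale. When library totals replaced size factors, the median log2 fold of all tested genes moved up by 0.19 at 24 h and by 0.27 at 48 h. Of the endothelial genes, 16 had a fold above 1 and 18 a fold below 1 at 24 h with size factors, against 25 and 9 with library totals. At 48 h these numbers were 19 and 16 with size factors and 29 and 6 with library totals. With library totals the median of all the endothelial genes was 0.12 and 0.34. That of the sinusoidal identity genes changed sign at both times (0.05 and 0.24), and so did that of the angiocrine genes at 48 h (0.12) but not at 24 h (-0.53). The median of the vessel type genes at 24 h changed sign against the 48 h control pool (-0.13) and against the sum of both control pools (-0.12). The medians of adhesion genes (1.14 and 1.01) and of receptors and junctions (0.46 and 0.62) were positive with library totals too.

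Counting the intervals alone, without asking for 2-fold, 4 of 35 genes lay above control at 24 h (Lyve1, Pecam1, Egfl7 and Icam1) and 6 below (Gpr182, Dnase1l3, Ehd3, Ushbp1, Bmp2 and Wnt2), where 14.4% and 16.3% of all tested genes did. At 48 h, 7 lay above (Lyve1, Maf, Pecam1, Plvap, Egfl7, Icam1 and Vcam1) and 4 below (Stab2, Dnase1l3, Aqp1 and Ramp2), where 13% and 16.7% of all tested genes did. Lyve1, Pecam1, Egfl7 and Icam1 lay above control at both times, and Dnase1l3 was below control at both. This count was added after the data had been seen. In bulk liver RNA, fewer cells of a type and less RNA per cell cannot be told apart.

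Among the 12 genes of sinusoidal identity, Lyve1, the hyaluronan receptor of sinusoidal and lymphatic endothelium (minus strand, chr7:110850607-110863239, GRCm38), was the single gene called at either time. It had 77 and 70 reads after APAP against 22 and 30 in controls, so both APAP pools were above both control pools. Its folds were 2.62 (1.62 to 4.42) and 2.04 (1.31 to 3.24), and against the control pool of the other time 2.04 (1.32 to 3.22) and 2.62 (1.61 to 4.45). Of 5 other markers of lymphatic endothelium, 2 had enough reads to be tested (Prox1 and Reln), and neither was called. Both are also expressed by other liver cells, Prox1 by hepatocytes and Reln by stellate cells. The more specific markers had too few reads for a call. Pdpn, which codes for podoplanin, had 4 reads in every pool, Ccl21a had 3 and 0 reads in controls and 3 and 7 after APAP, and Mmrn1 had 1 and 0 in controls and 6 and 5 after APAP. The part of lymphatic endothelium in the values of Lyve1 was not tested.

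None of the scavenger and lectin receptors of the sinusoid was called. Stab1, which codes for stabilin-1, had 87 and 145 reads in controls and 123 and 160 after APAP, with folds of 1.06 (0.798 to 1.41) and 0.965 (0.766 to 1.22). Stab2, which codes for stabilin-2, the main hyaluronan clearance receptor, had 140 and 157 reads after APAP against 120 and 176 in controls, with folds of 0.874 (0.68 to 1.12) and 0.78 (0.625 to 0.973). Clec4g, a C-type lectin of sinusoidal endothelium, was counted 212 and 250 times under vehicle and 266 and 258 times under APAP, with folds of 0.94 (0.782 to 1.13) and 0.902 (0.755 to 1.08). None of these folds was as far as 1.5-fold from the control of the same time, but Stab1 and Stab2 depended on which control pool was used. Against the control pool of the other time Stab1 had folds of 0.674 and 1.52, and Stab2 had folds of 0.632 and 1.08. Mrc1, the mannose receptor, had 66 and 71 reads in controls and 71 and 91 after APAP, with folds of 0.806 (0.568 to 1.14) and 1.12 (0.813 to 1.55). Fcgr2b, the inhibitory Fc receptor that clears immune complexes, had 174 and 180 reads after APAP against 120 and 149 in controls, with folds of 1.09 (0.856 to 1.38) and 1.06 (0.846 to 1.32). For both genes the interval held 1 at both times.

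Dnase1l3 and Ehd3 had the lowest folds of this group at 24 h, just short of 2-fold. Dnase1l3, a secreted DNase that degrades chromatin, was counted 413 and 380 times under vehicle and 314 and 349 times under APAP, with folds of 0.57 (0.49 to 0.661) and 0.803 (0.693 to 0.931). Ehd3, an endocytic recycling ATPase, had 203 and 188 reads in controls and 159 and 189 after APAP, with folds of 0.587 (0.474 to 0.726) and 0.879 (0.715 to 1.08). On the normalized scale the 24 h APAP pool was the lowest of the 4 pools for both genes. Gpr182, an atypical chemokine receptor of sinusoids, had 157 and 165 reads after APAP against 163 and 167 in controls, with folds of 0.722 (0.576 to 0.904) and 0.864 (0.692 to 1.08). The fold of Dnase1l3 at 48 h was 1.41 (1.14 to 1.74) times its fold at 24 h, and that of Ehd3 1.5 (1.11 to 2.02) times. Both ratios are under the 2 times asked of a call, and the folds at 48 h lay between those at 24 h and control. Since Dnase1l3 and Ehd3 were singled out by their low folds at 24 h, a return to control was not tested.

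The remaining identity genes were a secreted protein and the transcription factors. Oit3, a zona pellucida domain protein, was counted 65 and 58 times under vehicle and 82 and 66 times under APAP, with folds of 0.945 (0.674 to 1.33) and 0.995 (0.689 to 1.44). Gata4, which directs sinusoidal differentiation, had 104 and 92 reads in controls and 105 and 129 after APAP, with folds of 0.756 (0.571 to 1) and 1.23 (0.931 to 1.62). Maf, a factor of sinusoidal and macrophage identity, had 326 and 370 reads after APAP against 244 and 262 in controls, with folds of 1 (0.845 to 1.19) and 1.23 (1.05 to 1.45). Gata4 differed more between the times than Oit3 or Maf, with a fold at 48 h 1.62 (1.09 to 2.42) times that at 24 h. Without Lyve1, the median log2 fold of the identity genes was -0.19 at 24 h and -0.05 at 48 h. Their summed level over all 12 genes was 0.821 (0.77 to 0.876) of control at 24 h and 0.97 (0.913 to 1.03) at 48 h. The same sum over all tested genes was 0.878 and 0.831 of control. This sum, which is also set beside further lists below, is weighted toward genes with many reads. The median fold of all tested genes was 1.01 and 1. At 24 h the 12 genes summed to 2068 normalized reads in control and 1698 after APAP. Of these, Dnase1l3 had 470 and 267, and Ehd3 had 231 and 135.

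**Figure D2:**
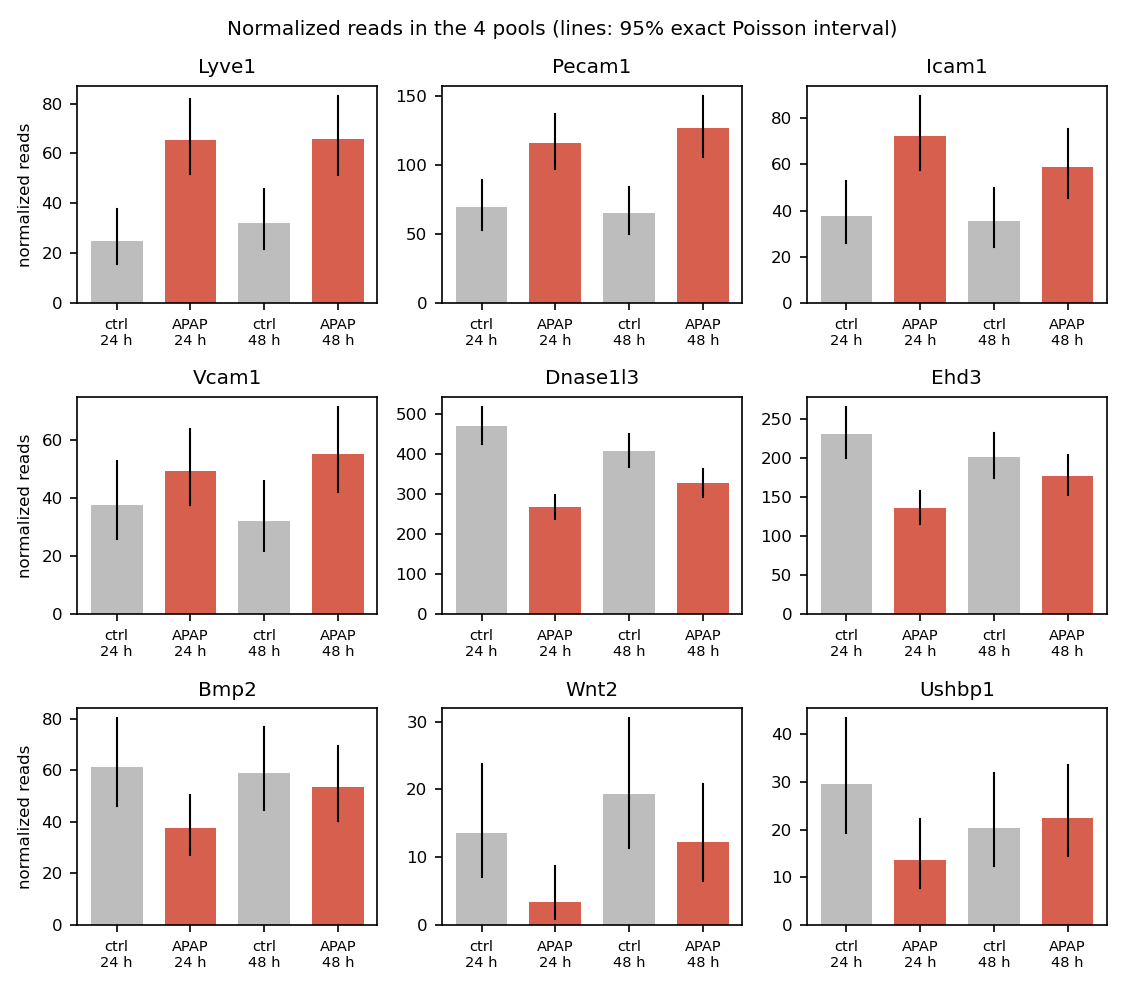
Normalized reads of 9 endothelial genes in the 4 pools, with grey bars for control, red bars for APAP and lines for the 95% exact Poisson interval, each panel on its own axis from 0. Lyve1, Pecam1 and Icam1 were higher in both APAP pools than in both control pools, whereas Dnase1l3, Ehd3, Bmp2, Wnt2 and Ushbp1 were lowest in the 24 h APAP pool, where Wnt2 had 3.41 normalized reads.

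Of the 9 genes of endothelial receptors and junctions, 0 were called. Pecam1, the platelet and endothelial adhesion molecule of endothelial junctions (minus strand, chr11:106654217-106750628), came nearest. It had 61 reads in each control pool and 136 and 135 in the APAP pools, so the APAP pools lay above the control pools. Its folds were 1.67 (1.23 to 2.3) and 1.94 (1.42 to 2.66), and with library totals its fold at 48 h was 2.33 and was called. Cdh5, which codes for VE-cadherin of the same junctions, was counted 72 and 79 times under vehicle and 127 and 118 times under APAP, with folds of 1.32 (0.982 to 1.79) and 1.31 (0.974 to 1.76). Its intervals just held 1 at both times.

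The VEGF receptors gave no common direction. Kdr, the main signalling receptor for VEGF-A, had 79 and 73 reads in controls and 96 and 74 after APAP, with folds of 0.91 (0.669 to 1.24) and 0.886 (0.633 to 1.24). Flt1, which binds VEGF-A and limits what reaches Kdr, had 63 and 95 reads after APAP against 52 and 61 in controls, with folds of 0.908 (0.619 to 1.34) and 1.36 (0.977 to 1.91). Flt4, the receptor for VEGF-C, was counted 46 and 58 times under vehicle and 84 and 85 times under APAP, with folds of 1.37 (0.944 to 2) and 1.28 (0.907 to 1.82). Every one of these intervals held 1.

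The angiopoietin receptor Tek had 16 and 19 reads in controls and 37 and 30 after APAP, with folds of 1.73 (0.94 to 3.34) and 1.38 (0.752 to 2.6). At this depth a difference of that size could not be told from counting error. Tie1, the partner receptor of Tek, had 55 and 38 reads after APAP against 34 and 37 in controls, with folds of 1.21 (0.776 to 1.92) and 0.898 (0.556 to 1.45). Ptprb, the phosphatase that opposes Tek, was counted 152 and 164 times under vehicle and 181 and 189 times under APAP, with folds of 0.892 (0.715 to 1.11) and 1.01 (0.813 to 1.25). Eng, which codes for endoglin, a co-receptor for BMP9, had 276 and 308 reads in controls and 336 and 348 after APAP, with folds of 0.912 (0.776 to 1.07) and 0.988 (0.845 to 1.16). The intervals of Ptprb and Eng are narrow enough to leave out a difference of 1.5-fold at either time.

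Around these receptors, 2 of 8 tested VEGF and angiopoietin ligands and co-receptors were called higher at 24 h, 0 lower, and 0 in either direction at 48 h. Angptl4, a lipoprotein lipase inhibitor that hypoxia and fasting induce, had 324 and 109 reads after APAP against 62 and 102 in controls, with folds of 3.92 (2.98 to 5.22) and 0.934 (0.707 to 1.24). Angpt2, the context-dependent antagonist of Tek that endothelial cells release, was counted 1 and 3 times under vehicle and 13 and 5 times under APAP, with ratios of 9.74 (1.46 to 414) and 1.46 (0.284 to 9.39). Both were highest in the 24 h APAP pool. Other genes of this list, named after their values had been seen, lay below control without being called. Nrp2, a co-receptor for VEGF-C, had folds of 0.606 (0.384 to 0.949) and 0.515 (0.325 to 0.806), and Nrp1, a co-receptor for VEGF-A, 0.892 (0.8 to 0.994) and 0.703 (0.625 to 0.792). Vegfb had a fold of 0.623 (0.496 to 0.782) at 48 h. The summed level of the list was 1.12 (1.03 to 1.22) times control at 24 h and 0.732 (0.67 to 0.8) at 48 h. Over all tested genes the sum was 0.878 and 0.831 times control. At 24 h the list summed to 1054 normalized reads in control and 1177 after APAP. Of these, Nrp1 had 706 and 629, and Angptl4 had 70.5 and 276.

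Among the 8 genes that tell vessel types apart, 1 was called. Ushbp1 (minus strand, chr8:71384272-71395802), an endothelium-enriched gene, had 26 and 19 reads in controls and 16 and 24 after APAP. The 24 h pools were thus highest in control and lowest in APAP, and the 48 h pools lay between. Its folds were 0.461 (0.231 to 0.892) and 1.1 (0.58 to 2.13). The call at 24 h was lost with library totals (0.525), against the 48 h control pool (0.669) and against the sum of both control pools (0.549).

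Plvap, the diaphragm protein of fenestrae, lies close to Ushbp1 on the same strand, at chr8:71497765-71511752. It had 202 and 227 reads after APAP against 139 and 129 in controls, with folds of 1.09 (0.873 to 1.36) and 1.54 (1.23 to 1.93). Its fold at 48 h was 1.41 (1.03 to 1.94) times that at 24 h. Egfl7, a secreted factor of vascular endothelium, was counted 54 and 75 times under vehicle and 118 and 121 times under APAP, with folds of 1.64 (1.18 to 2.3) and 1.41 (1.05 to 1.91). Its APAP pools lay above its control pools, although its entry also names a second gene, Gm20532. Aqp1, a water channel of vessels and bile ducts, had 297 and 338 reads in controls and 379 and 280 after APAP, with folds of 0.956 (0.819 to 1.12) and 0.724 (0.616 to 0.851). Aqp1 was lowest in the 48 h APAP pool, and its fold there was 0.758 (0.605 to 0.949) of that at 24 h.

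Ramp2, a partner of the adrenomedullin receptor, was the single endothelial gene called between the control pools, which had 32 and 72 reads (2.12, 1.38 to 3.33). Of all tested genes, 2% were called higher and 1.68% lower in the 48 h control pool than in the 24 h control pool. Its APAP pools had 47 and 56 reads, within the range of the controls, and its folds were 1.1 (0.688 to 1.78) and 0.68 (0.471 to 0.978). Against the control pool of the other time the folds of Ramp2 were 0.519 and 1.44, the opposite direction at both times. Stab1 and Stab2 also differed between the control pools, by 1.57 (1.2 to 2.07) and 1.38 (1.09 to 1.76).

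Genes of large vessels were near the limit of counting. Vwf, which codes for von Willebrand factor, had 16 reads in each control pool and 19 and 18 in the APAP pools, with folds of 0.89 (0.433 to 1.85) and 0.984 (0.474 to 2.06). Nos3, the endothelial nitric oxide synthase, had 17 and 21 reads after APAP against 11 and 12 in controls, with folds of 1.16 (0.512 to 2.73) and 1.53 (0.719 to 3.41). Cd34, a sialomucin of capillary endothelium and progenitors, was counted 2 and 8 times under vehicle and 1 and 10 times under APAP. It gave no fold at 24 h and a fold of 1.09 (0.388 to 3.19) at 48 h. The intervals of all 3 genes at 48 h were wide enough to hold a 2-fold difference.

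Of the 4 angiocrine genes, 3 (Wnt2, Wnt9b and Bmp2) were lowest in the 24 h APAP pool. Wnt2, a Wnt ligand of pericentral sinusoidal cells (minus strand, chr6:17988940-18030585), was called lower at 24 h. It had 12 and 18 reads in controls and 4 and 13 after APAP, so the 24 h APAP pool was the lowest. Its folds were 0.25 (0.0587 to 0.824) and 0.632 (0.284 to 1.36). Against the control pool of the other time the fold at 24 h was 0.176, and with library totals it was 0.284. The call rests on few reads and was lost with a floor of 10 reads and with a minimum of 50 reads over the 4 libraries. Wnt9b, the Wnt ligand of central vein endothelium (minus strand, chr11:103727364-103749821), had 0 and 6 reads after APAP against 5 and 2 in controls and was not tested. With the 0 set to the floor of 3 reads, its level at 24 h was 0.45 of control (the interval of the ratio ran from 0 to 0.818), and its ratio at 48 h was 2.62 (0.469 to 26.6).

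Bmp2, the endothelial BMP that together with Bmp6 controls hepcidin, was counted 54 and 55 times under vehicle and 44 and 57 times under APAP, with folds of 0.61 (0.4 to 0.926) and 0.906 (0.615 to 1.34). Rspo3, the R-spondin that strengthens Wnt signals around the central vein, had 29 and 25 reads in controls and 37 and 30 after APAP, with folds of 0.956 (0.572 to 1.61) and 1.05 (0.597 to 1.86). Rspo3 thus showed no detectable difference at this depth, while Bmp2 was lowest in the 24 h APAP pool. Summed over the 4 genes, the normalized level was 0.637 (0.471 to 0.859) of control at 24 h and 0.927 (0.699 to 1.23) at 48 h. Over all tested genes such a sum was 0.878 and 0.831 of control.

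In this bulk liver RNA, listed targets of Wnt and R-spondin and listed targets of BMP were called in opposite directions. The part of the ligands above in their values was not tested. Of 10 targets of Wnt and R-spondin, 5 were called lower at 24 h and 2 at 48 h, and 0 higher at either time. Glul, the glutamine synthetase of pericentral hepatocytes, had 436 and 323 reads after APAP against 3046 and 3324 in controls, with folds of 0.107 (0.0968 to 0.119) and 0.085 (0.0756 to 0.0953). Rhbg, an ammonium transporter of the same cells, was counted 43 and 109 times under vehicle and 10 and 11 times under APAP, with folds of 0.174 (0.0781 to 0.352) and 0.0882 (0.0428 to 0.164). Rhbg was also called higher in the 48 h control pool than in the 24 h control pool (2.39, 1.67 to 3.49). Glul and Rhbg were low at 48 h too, when Wnt2 and Rspo3 had 13 and 30 reads. Lgr5, a receptor for R-spondins, had 18 and 15 reads in controls and 6 and 7 after APAP. Sp5, a direct Wnt target, had 0 and 3 reads after APAP against 9 and 10 in controls. Not all targets were low, as values seen before these genes were named show. Znrf3, a Wnt feedback inhibitor, lay above control at both times, at 1.6 (1.07 to 2.43) and 1.75 (1.16 to 2.69). The feedback gene Axin2 had folds of 1.28 (0.466 to 3.85) and 0.583 (0.207 to 1.55). Rnf43, another feedback gene, had folds of 1.06 (0.688 to 1.64) and 0.874 (0.565 to 1.35). Cyp2e1, the pericentral enzyme that activates APAP, had folds of 0.623 (0.601 to 0.645) and 0.369 (0.354 to 0.385), and the part of a loss of pericentral hepatocytes in these values was not tested.

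Of 8 targets of BMP, 2 were called higher at 24 h and 5 at 48 h, and 0 lower. Id1, an early BMP target, was counted 20 and 9 times under vehicle and 129 and 167 times under APAP, with folds of 4.83 (3 to 8.17) and 16.2 (8.34 to 36.1). Id1 was itself called lower in the 48 h control pool than in the 24 h control pool (0.424, 0.17 to 0.975). Its normalized reads were 22.7 and 9.65 in controls and 110 and 157 after APAP. Hamp, the hepcidin gene, had 5953 and 5889 reads in controls and 15401 and 19538 after APAP, with folds of 1.94 (1.88 to 2) and 2.9 (2.82 to 2.99). Both genes were higher still in the 48 h APAP pool than in the 24 h APAP pool. Smad7, the inhibitory SMAD, had 85 and 126 reads after APAP against 34 and 30 in controls, with folds of 1.87 (1.24 to 2.88) and 3.67 (2.45 to 5.67). Atoh8 was counted 36 and 53 times under vehicle and 128 and 148 times under APAP, with folds of 2.66 (1.83 to 3.97) and 2.44 (1.77 to 3.41). Other targets were named after their values had been seen. Smad6 had folds of 1.03 (0.546 to 1.96) and 1.999 (1.17 to 3.51), and Bambi 0.421 (0.164 to 1.01) and 1.75 (0.813 to 3.99). The fold of Bambi at 48 h was called higher than at 24 h, at 4.15 (1.23 to 14.3) times. Bmp2 itself was called at neither time, and Bmp6, with 16 and 27 reads under vehicle and 39 and 39 under APAP, had folds of 1.83 (0.997 to 3.5) and 1.26 (0.754 to 2.15). Hamp, Id1 and Smad7 also answer to inflammatory cytokines or TGF-β.

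Among 8 other ligands that endothelial cells can release, 1 was called higher at each time and 0 lower. This was Ctgf, a matricellular protein also made by hepatocytes and stellate cells, with 7 and 5 reads under vehicle and 118 and 50 under APAP. Its folds were 12.6 (5.94 to 32.1) and 8.74 (3.51 to 28.1). The share of all tested genes called higher was 5.31% and 5.18%.

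The 4 adhesion genes were Icam1, Vcam1, Sele and Selp. In inflamed endothelium their transcription is known to respond to NF-κB, and the upstream sequences of the 3 with a reference promoter are shown for that reason. They are the 250 bases before the RefSeq start (GRCm38.p6, plus strand), 5′ to 3′. Capitals mark the letters GGNNNTTCC, the core of a κB site, read on either strand, and in Sele also TATAAA. The coordinates are chr9:21015690-21015939 for Icam1, chr1:164047984-164048233 for Sele and chr1:164115014-164115263 for Selp.
Icam1: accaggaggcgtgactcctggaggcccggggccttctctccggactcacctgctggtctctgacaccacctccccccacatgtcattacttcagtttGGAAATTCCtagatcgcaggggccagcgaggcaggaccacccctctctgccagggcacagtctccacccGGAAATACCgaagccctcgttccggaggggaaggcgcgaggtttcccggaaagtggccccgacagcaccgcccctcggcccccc
Sele: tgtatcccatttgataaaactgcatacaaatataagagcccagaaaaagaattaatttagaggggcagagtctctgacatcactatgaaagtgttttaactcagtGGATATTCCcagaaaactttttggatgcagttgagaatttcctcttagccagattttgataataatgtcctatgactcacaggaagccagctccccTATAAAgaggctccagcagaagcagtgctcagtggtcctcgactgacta
Selp: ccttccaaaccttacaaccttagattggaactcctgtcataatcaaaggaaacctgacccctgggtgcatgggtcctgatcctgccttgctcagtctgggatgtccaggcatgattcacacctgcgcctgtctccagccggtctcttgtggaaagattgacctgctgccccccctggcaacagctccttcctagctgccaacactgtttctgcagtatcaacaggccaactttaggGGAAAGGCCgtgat

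The κB letters were present in 15.7% of 32851 promoter windows of 250 bases, in at least 1 window of 17.6% of the genes they belong to, and in 7 of the 21 endothelial genes with a window (Egfl7, Eng, Icam1, Mrc1, Sele, Selp and Ushbp1). Icam1 had 2 matches, Sele 1 and Selp 1. TATAAA was present in 12.4% of windows (14.3% of genes) and in 3 of the 21 (Clec4g, Flt1 and Sele). AGGAAG, a core of ETS sites, was present in 29.5% of windows (32.3% of genes) and in 13 of the 21. All letters were searched on both strands and over the 250 bases before the start. None of the 21 held the GATA letters AGATAA, which 9.99% of windows (11.4% of genes) did. A match is a description of the sequence and not a site in use.

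Icam1 (plus strand, chr9:21015985-21028817), which codes for the ligand of the leukocyte integrins LFA-1 and Mac-1, had 33 reads in each control pool and 85 and 63 in the APAP pools. Both APAP pools lay above both control pools, by 1.93 (1.28 to 2.98) and 1.67 (1.08 to 2.63). Icam1 was not called, and it passed 2-fold with library totals (2.2 and 2.01) and, at 24 h, against the 48 h control pool (2.05). Vcam1, the ligand of the integrin VLA-4, had 33 and 30 reads in controls and 58 and 59 after APAP, with folds of 1.32 (0.845 to 2.08) and 1.72 (1.09 to 2.77). Its fold at 48 h also passed 2-fold with library totals (2.07). Neither gene is made by endothelium alone, and macrophages and stellate cells express both.

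The selectins, whose genes are neighbours on chromosome 1 (Sele at chr1:164048234-164057677 and Selp at chr1:164115264-164150026), were near or under the floor of detection. Selp, which codes for P-selectin of endothelium and platelets, had 12 and 6 reads after APAP against 4 and 7 in controls, with folds of 2.25 (0.681 to 9.56) and 0.75 (0.208 to 2.6). Sele, which codes for E-selectin, had 2 reads, both in the 24 h APAP pool. Its count of 0 in the other pools allows up to 0.617, 0.578 and 0.608 RPM (reads scaled to the library total, for control at 24 h, control at 48 h and APAP at 48 h). A difference in either selectin was not detectable at this depth. Summed over the 4 adhesion genes, the normalized level was 1.68 (1.26 to 2.26) times control at 24 h and 1.6 (1.19 to 2.17) times at 48 h. For all tested genes the sum was 0.878 and 0.831 times control.

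Among 9 other adhesion genes of endothelial and neighbouring cells, 2 were called higher at 24 h and 3 at 48 h, and 0 lower. Over all tested genes, 5.31% and 5.18% were called higher. Pvr, the poliovirus receptor, was counted 14 and 25 times under vehicle and 107 and 53 times under APAP, with folds of 5.73 (3.27 to 10.8) and 1.85 (1.13 to 3.11). Mcam, an endothelial and pericyte adhesion molecule, had 6 and 5 reads in controls and 22 and 20 after APAP, with folds of 2.75 (1.08 to 8.28) and 3.5 (1.27 to 11.9). Pvr was highest in the 24 h APAP pool, whereas Mcam was alike in both APAP pools. Alcam had 359 and 369 reads after APAP against 158 and 132 in controls, with folds of 1.7 (1.41 to 2.07) and 2.44 (2 to 3.01). Jam2 was counted 28 and 23 times under vehicle and 66 and 53 times under APAP, with folds of 1.77 (1.12 to 2.85) and 2.02 (1.21 to 3.44). All 4 had more normalized reads in both APAP pools than in both control pools. The list also held genes below control that were not called, named after their values had been seen. Nectin2 had folds of 0.673 (0.557 to 0.814) and 0.544 (0.445 to 0.662), and Cd99l2 had a fold of 0.611 (0.453 to 0.822) at 48 h. Jam3, with 3 and 18 reads in controls, was called between the control pools (5.66, 1.65 to 30).

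On the side of the leukocytes, 1 of 9 tested binding partners was called higher at 24 h and 2 at 48 h, and 0 lower. Calls of higher made up 5.31% and 5.18% of all tested genes. Itgb2, the shared chain of LFA-1 and Mac-1, had 10 and 16 reads in controls and 27 and 51 after APAP, with folds of 2.02 (0.949 to 4.68) and 2.79 (1.56 to 5.24). Itgam, the other chain of Mac-1, had 10 and 12 reads after APAP against 2 and 1 in controls. Cd24a, a ligand of P-selectin, was counted 15 and 7 times under vehicle and 42 and 15 times under APAP, with folds of 2.1 (1.14 to 4.07) and 1.87 (0.719 to 5.43). The part of leukocytes in the values of these partners was not tested.

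Markers of other cells were counted by the same rule. Of 9 monocyte and macrophage markers, 5 were called higher at 24 h and 8 at 48 h, 0 were called lower, and their summed level was 363 and 418 normalized reads in controls and 844 and 1478 in the APAP pools. None of these 9 markers was at 0 in any pool. Of 9 stellate cell and fibroblast markers, 1 was called higher at 24 h and 4 at 48 h, with sums of 555 and 584 in controls and 686 and 1170 after APAP. At 24 h the interval of 1 of them, Lrat (0.557, 0.322 to 0.951), lay below 1, and the intervals of 2 lay above. Of 9 Kupffer cell markers, 1 (Marco) was called higher at each time, with sums of 969 and 961 in controls and 1061 and 1338 after APAP. Marco alone had 68.2 and 39.7 normalized reads in controls and 209 and 158 after APAP. At 24 h the interval of 1 Kupffer cell marker, Clec4f (0.534, 0.441 to 0.645), lay below 1, and the intervals of 2 lay above. Its fold at 48 h was 0.985 (0.831 to 1.17). Clec4f and Lrat were named after their values had been seen. Lyve1, Stab1, Mrc1, Fcgr2b, Maf, Pecam1, Icam1 and Vcam1 are also expressed by macrophages, and the part of those cells in their values was not tested.

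A wider list of endothelial genes was set beside the 37. Of 28 tested, 2 were called higher at 24 h and 4 at 48 h, and 0 lower, with median log2 folds of 0.34 and 0.24. The share of all tested genes called higher was 5.31% at 24 h and 5.18% at 48 h. This list too was chosen with earlier results of these data known. Thbd, which codes for the anticoagulant receptor thrombomodulin, had 9 reads in each control pool and 47 and 29 in the APAP pools, with folds of 3.91 (1.9 to 9.08) and 2.82 (1.3 to 6.77). Esm1, a marker of sprouting tip cells, had 1 and 3 reads in controls and 16 and 14 after APAP, with ratios of 12 (1.86 to 503) and 4.08 (1.14 to 22.1). Both were above control at both times. Sox18, an endothelial transcription factor, had 32 and 35 reads after APAP against 15 and 11 in controls, with folds of 1.6 (0.841 to 3.18) and 2.78 (1.38 to 6.07). Dll4, the Notch ligand of tip cells, was counted 7 and 4 times under vehicle and 13 and 15 times under APAP, with folds of 1.39 (0.516 to 4.12) and 3.28 (1.04 to 13.6). The last of these intervals barely left out 1.

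**Figure D3:**
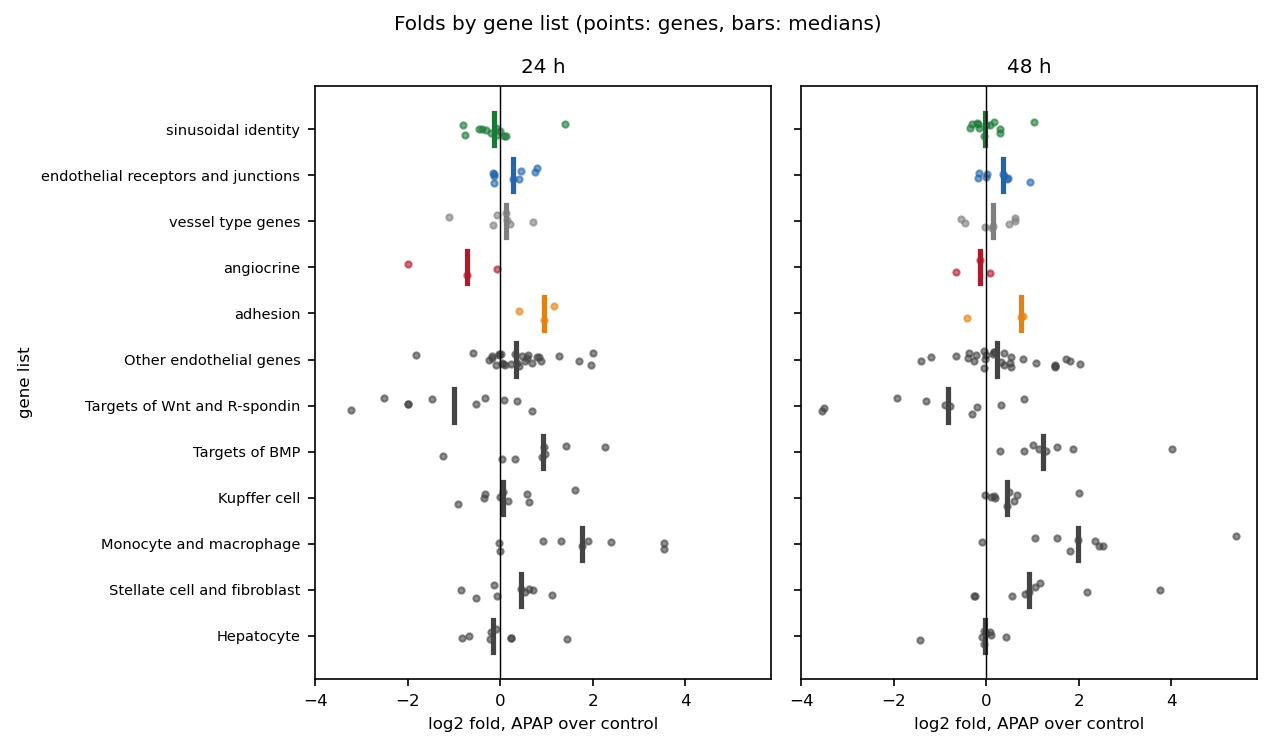
Log2 fold of APAP over control at 24 h (left) and 48 h (right) for the genes of 12 lists, with 1 point per tested gene and a bar at each list's median. Adhesion genes (medians 0.95 and 0.74) and targets of BMP (0.93 and 1.22) lie to the right of 0, targets of Wnt and R-spondin (-1.01 and -0.84) to the left, and sinusoidal identity genes (-0.14 and -0.03) close to it.

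Between the times, 0 of the 35 genes had a fold at 48 h that was called higher or lower than at 24 h, where 2.93% of all tested genes were called higher and 3.23% lower. The ratios farthest from 1 were those of Selp, at 0.333 (0.0513 to 2.03), Wnt2, at 2.53 (0.575 to 13), and Ushbp1, at 2.4 (0.926 to 6.24). With the sum of both control pools, for which the control cancels, Wnt2 and Cd34 were called higher at 48 h than at 24 h. Both rest on 4 reads or fewer in the 24 h APAP pool. The lower values of Dnase1l3, Ehd3, Bmp2 and Wnt2 at 24 h were nearer to control at 48 h in each case. These genes were named for their low folds at 24 h, which also enter the ratios, so a return to control was not tested. The intervals of the ratios left out 1 for Dnase1l3 and Ehd3, and also for Gata4, Plvap and Aqp1. Plvap and Aqp1 lay farther from control at 48 h than at 24 h.

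Near the limit of a call, Selp (2.25, interval across 1) and Lyve1 (2.62) were the nearest above 2-fold at 24 h, and Icam1 (1.93) and Tek (1.73) the nearest under it. At 48 h Lyve1 (2.04) was just inside, and Pecam1 (1.94) and Vcam1 (1.72) just outside. On the low side at 24 h, Ushbp1 (0.461) was just inside, and Dnase1l3 (0.57) and Ehd3 (0.587) just outside.

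The 3′ ends, from which MACE reads come, were compared with those of all other genes. None of the 37 shared the last 300 bases of its transcripts with another gene at 95% identity or more over at least 100 bases. For 7 of them another gene overlaps these bases: Agpat2 for Egfl7, Fpgs for Eng, Zbtb39 for Gpr182, Gm47079 for Icam1, Atg9b for Nos3 and Nt5dc2 for Stab1 on the opposite strand, and Vps25 for Ramp2 on the same strand. Whether reads were counted by strand is not given in the sources used here, so reads of these pairs may not be told apart.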

How the data were processed

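Liver RNA of 4 pools of mice (1 per group) was measured by MACE 3′ mRNA sequencing. According to the methods, the authors removed duplicate reads by unique molecular identifiers, cut low-quality bases (cutadapt) and poly(A)-tails, aligned to mm10 and counted by HTSeq. Versions are not given in the sources used here. The deposited count of reads per gene was used as it stood, and the authors' scaled values, ratios, p-values and FDR values were not used. No test between groups was run, since each group was 1 library without a replicate.

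Counts were divided by size factors (DESeq2 1.42.0, R 4.3.3). Folds and exact (Clopper-Pearson) 95% intervals were computed in Python 3.11.15 with scipy 1.17.1 and pandas 2.3.3, and plots with matplotlib 3.10.9. A count of 3 or fewer on either side of a fold was set to 3 reads for calls and medians, and no fold was given where both were. Ratios to counts of 1 to 3 are printed without that floor. The ratio of folds has an exact conditional interval. Genes with at least 20 reads over the 4 libraries were tested at 2-fold. Alternatives were edgeR 4.0.16 TMM factors, library totals, the other or summed controls, and other thresholds, minimums and floors. Every member was named or counted, all 4 counts were given for those called or with at least 50 reads, and up to 4 called genes were named from each further list. Members and lists were chosen with earlier results of these data known. The procedure was tested on simulated data. The simulated counts held counting error alone, so that test says nothing of differences among mice or between control pools. Gene positions were taken from GENCODE mouse release 21, 3′ ends were compared by blastn 2.17.0 and promoters came from RefSeq.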

Additional observations from a re-analysis of the deposited data

How the results depend on the processing

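When library totals replaced size factors, 2 endothelial genes were called higher and 1 lower at 24 h, and 4 higher at 48 h. Against the control pool of the other time, 2 were called higher at 24 h, and 4 genes (Cd34, Ramp2, Stab1 and Wnt2) were called with a higher fold at 48 h; against the sum of both control pools, 1 was called lower at 24 h and 2 (Cd34 and Wnt2) were called in that direction. A threshold of 1.5-fold gave 4 higher and 5 lower at 24 h and 5 higher at 48 h, and 5-fold gave 0 higher and 0 lower at 24 h and 0 higher at 48 h. The fold alone gave 2 higher at 24 h, and a floor of 10 reads or a minimum of 50 reads gave 1 lower at 24 h, the lost gene being Wnt2. The interval alone, added after the data had been seen, gave 4 higher and 6 lower at 24 h and 7 higher and 4 lower at 48 h. The other 124 values that summarise a comparison stayed within the median counting interval or within 1.5 times, and no called fold changed direction. Values without a call did. Beside the medians given above, that of the sinusoidal identity genes at 48 h was 0.07 and 0.04 against the other and summed controls. Stab1, Stab2 and Ramp2 changed direction against the other control pool at 1 or both times. Folds of further genes crossed 1 there too, among them Fcgr2b, Oit3, Kdr and Rspo3 at 24 h. At 48 h they included Ushbp1, Eng, Rspo3 and Selp. Lyve1 at both times and Wnt2 at 24 h were called under TMM factors, library totals and both other controls, and Wnt2 was lost with the higher floor and minimum. Depth limits Selp, Sele, Cd34, Nos3, Vwf, Wnt2 and Wnt9b, for which a 2-fold difference is within or near counting error. Pools of 6 or 7 mice give no spread between mice, and intervals do not cover it.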

Other observations

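Other marker lists outside the comparison gave the following values. Of 4 tested neutrophil markers, 3 were called higher at each time, and their sum over the 7 markers found was 18.2 normalized reads in each control pool and 216 and 161 in the APAP pools. S100a8 had 5 and 10 reads in controls and 139 and 106 after APAP, and S100a9 had 75 and 38 reads after APAP against 6 and 1 in controls. Of 5 cholangiocyte markers, 1 was called higher at 24 h (Sox9, 3.97, 2.99 to 5.35) and 1 at 48 h (Spp1, 2.14, 1.61 to 2.88), both of which other liver cells also express after injury. The median log2 fold of the 5 was 0.49 at 24 h and -0.71 at 48 h, with 4 and 2 folds above 1 and 0 called lower. The cholangiocyte keratin gene Krt19 was counted 6 and 13 times under vehicle and 8 and 8 times under APAP. None of the 6 lymphocyte markers had 20 reads over the 4 libraries, and Cd8a had 0 reads in every pool.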
